A study of Mus musculus with 20 samples.

Results

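Lung vessels are built from several kinds of endothelial cell, and 9 genes that mark those kinds were followed through 4 treatment groups of sorted mouse T cells. Car4, Ednrb, Apln and Kdr mark the aerocyte, the thin capillary cell of the gas exchange surface. Gpihbp1, Aplnr and Plvap mark the general capillary cell, Sema3g marks arteries and Vwf marks larger vessels. Each gene was read from the probe set, among those listed with exactly 1 gene symbol, that had the highest mean over all 20 arrays, which gave 9 of 17097 genes on the array. The genes were chosen with results of these data in view: Gpihbp1, Aplnr, Plvap and Sema3g were known to be among the largest differences between SD-101+anti-PD-1 and Saline-CTRL, and Vwf was a member of a list known to differ there. Values of that comparison are therefore given as a description without a test.

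All samples were CD44+CD8+ T cells from mouse lungs that carried tumours of 4T1, a mammary carcinoma line, and all treatments were given through the nose. The 4 groups were SD-101+anti-PD-1+a-CD4 (4 arrays, also called the triple treatment here), SD-101+anti-PD-1 (5 arrays), SD-101 (6 arrays) and Saline-CTRL (5 arrays). SD-101 is a synthetic DNA that activates the innate immune sensor TLR9. Anti-PD-1 blocks PD-1, which restrains activated T cells. The labels name a-CD4 without describing it, and they give neither the age of the mice nor a time after treatment. Whether each array stands for its own animal or for pooled animals is not given, so p-values reflect spread among the deposited samples, which may be technical. Values are deposited log2 intensities of Affymetrix probe sets, and differences are differences of group mean log2 values, so 1 unit is a doubling. The level of 1 probe set cannot be set against that of another.

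Endothelial cells line every blood vessel, and in the lung alveolus they come in 2 interlocking forms. Aerocytes spread over the thin gas exchange barrier, while general capillary cells regulate vessel tone and serve as the precursors that renew both forms in mice. The 2 forms signal to each other: aerocytes make apelin, the product of Apln, and general capillary cells carry its receptor, the product of Aplnr. None of the 9 genes is a marker of CD8 T cells.

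Genes that define the sort were strongly expressed in all 4 groups. Cd8a, a chain of the CD8 coreceptor, averaged 10.93 ± 1.004 on the 4 SD-101+anti-PD-1+a-CD4 arrays (mean ± SD, here and for the list means), 10.92 ± 0.18 on the 5 SD-101+anti-PD-1 arrays, 10.91 ± 0.28 on the 6 SD-101 arrays and 10.45 ± 0.64 on the 5 Saline-CTRL arrays. Pan-endothelial genes were measured as well. The junction gene Cdh5 averaged 6.53 ± 0.58, 4.87 ± 0.83, 8.15 ± 1.004 and 8.74 ± 0.82 in those groups, given in the same order. The sorted samples carried vessel transcripts, least with SD-101+anti-PD-1. In bulk samples, fewer cells of a type and less RNA per cell cannot be told apart. A pair of arrays stood apart by the mean of a T cell gene list: replicate 2 in the triple treatment was at 8.54 and replicate 1 of Saline-CTRL at 8.99, against group means of 9.75 to 10.05. For the 9 vessel genes, calls that were lost without them are named beside the result. Calls of other genes were not checked without them.

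Promoter sequence was in the RefSeq table (GRCm38.p6) for 5 of the 9 genes. The 250 bases before the start were searched on both strands for AGGAAG and CCGGAA, letters bound by ETS factors, a family known for its part in endothelial gene expression. Such letters stood in 4 of the 5 promoters, against 38.2% of 32851 promoters of the same length (29.5% for AGGAAG and 12.0% for CCGGAA). A match of letters does not show a bound site. The 4 sequences that held a match are shown. They belong to genes of 2 vessel classes, which varied together on these arrays, less so for Apln. Capitals mark the matched letters, which read CTTCCT or TTCCGG where the match is on the other strand. The match of Kdr begins 153 bases before the start, that of Apln 113 bases, that of Sema3g 89 bases, and Car4 has 2 overlapping matches on opposite strands from 199 bases.
Kdr (chr5:75978456-75978705, minus strand): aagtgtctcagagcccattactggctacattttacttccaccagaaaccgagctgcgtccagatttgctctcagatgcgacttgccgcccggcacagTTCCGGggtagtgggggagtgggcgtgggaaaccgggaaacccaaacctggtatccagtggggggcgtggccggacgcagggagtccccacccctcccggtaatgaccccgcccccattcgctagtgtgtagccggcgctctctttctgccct
Car4 (chr11:84957504-84957753, plus strand): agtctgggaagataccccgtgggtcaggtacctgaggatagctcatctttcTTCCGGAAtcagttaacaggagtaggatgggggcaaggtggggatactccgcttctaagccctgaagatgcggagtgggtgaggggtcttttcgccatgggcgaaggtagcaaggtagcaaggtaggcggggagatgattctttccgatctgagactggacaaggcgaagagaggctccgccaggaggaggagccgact
Apln (chrX:48034854-48035103, minus strand): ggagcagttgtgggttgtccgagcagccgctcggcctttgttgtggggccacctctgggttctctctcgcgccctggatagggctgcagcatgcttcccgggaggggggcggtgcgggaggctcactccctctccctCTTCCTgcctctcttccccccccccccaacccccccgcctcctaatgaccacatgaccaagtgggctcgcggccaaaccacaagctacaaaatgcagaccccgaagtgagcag
Sema3g (chr14:31217623-31217872, plus strand): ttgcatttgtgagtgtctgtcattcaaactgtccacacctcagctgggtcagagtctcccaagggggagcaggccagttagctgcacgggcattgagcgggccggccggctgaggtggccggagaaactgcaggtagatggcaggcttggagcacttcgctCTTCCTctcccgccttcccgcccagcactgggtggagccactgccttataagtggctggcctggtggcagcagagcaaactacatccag
The Ednrb promoter held neither motif in this window. ACAAAG, letters bound by SOX factors, stood once in these 5 promoters, in that of Apln (16.5% of all promoters), and AGATAA, letters bound by GATA factors, stood in none of them (9.99% of all promoters).

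Among aerocyte genes, Car4 encodes carbonic anhydrase 4, a membrane enzyme that speeds the conversion of carbon dioxide and bicarbonate. Car4 was at 7.98, 6.45, 6.98 and 6.00 on the SD-101+anti-PD-1+a-CD4 arrays and at 6.52, 6.13, 5.37, 5.17 and 5.21 on the SD-101+anti-PD-1 arrays. With SD-101, Car4 had a lowest value of 7.07, a median of 8.78 and a highest value of 9.33, and it was at 9.06, 8.14, 9.45, 9.07 and 8.47 with Saline-CTRL. All SD-101+anti-PD-1 arrays lay below all SD-101 arrays, while the 2 groups given anti-PD-1 overlapped.

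Ednrb encodes a receptor for the vasoactive peptide endothelin. Ednrb was at 5.26, 4.57, 5.16 and 4.55 with SD-101+anti-PD-1+a-CD4 and at 5.52, 5.09, 3.59, 4.58 and 4.12 with SD-101+anti-PD-1. With SD-101, Ednrb ran from 5.38 through a median of 6.40 to 8.04, and the Saline-CTRL arrays were at 8.12, 7.09, 8.33, 7.62 and 7.38. Every SD-101+anti-PD-1+a-CD4 array lay below every SD-101 array, and 5 of 6 SD-101 arrays lay below every Saline-CTRL array. Kdr encodes the main signalling receptor for vascular endothelial growth factor A. It was at 7.31, 6.51, 7.11 and 6.78 with SD-101+anti-PD-1+a-CD4 and at 7.05, 7.47, 6.25, 6.52 and 6.47 with SD-101+anti-PD-1. With SD-101, Kdr ran from 6.91 through a median of 8.25 to 9.26, and the Saline-CTRL arrays were at 8.67, 7.97, 9.27, 8.76 and 8.31. The SD-101+anti-PD-1+a-CD4 arrays lay inside the range of the SD-101+anti-PD-1 arrays.

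Apln, the apelin gene, had a different order of groups from the other 8 genes. It was at 6.01, 7.11, 4.99 and 6.69 with SD-101+anti-PD-1+a-CD4 and at 4.73, 6.38, 3.58, 4.17 and 4.61 with SD-101+anti-PD-1. With SD-101, Apln ran from 5.30 through a median of 6.39 to 7.42, and the Saline-CTRL arrays were at 5.97, 5.55, 7.20, 6.65 and 6.15. The SD-101+anti-PD-1+a-CD4, SD-101 and Saline-CTRL groups covered much the same range, and only SD-101+anti-PD-1 was lower, with replicate 2 inside the range of the others. The means of Apln were 6.20 ± 0.92 (SD, n = 4), 6.45 ± 0.84 (SD, n = 6) and 6.30 ± 0.64 (SD, n = 5) in those 3 groups.

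Among general capillary genes, Gpihbp1 encodes the protein that carries lipoprotein lipase to the luminal face of capillaries. It was at 8.57, 7.48, 6.40 and 6.32 with SD-101+anti-PD-1+a-CD4 and at 4.70, 5.92, 3.24, 3.45 and 3.16 with SD-101+anti-PD-1. With SD-101, Gpihbp1 ran from 6.31 through a median of 8.99 to 9.34, and the Saline-CTRL arrays were at 9.66, 7.30, 10.13, 10.24 and 9.17. Every SD-101+anti-PD-1 array was below every array of the other 3 groups. On 3 of the 5 the value was below the array medians of all probe sets, which were 3.52 to 3.75, and so near the low end of the scale.

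Aplnr encodes the apelin receptor. It was at 5.95, 4.83, 5.55 and 4.88 with SD-101+anti-PD-1+a-CD4 and at 4.26, 4.64, 2.88, 2.69 and 3.001 with SD-101+anti-PD-1. With SD-101, Aplnr ran from 5.74 through a median of 8.39 to 9.46, and the Saline-CTRL arrays were at 8.08, 6.85, 9.36, 9.60 and 8.72. Every SD-101+anti-PD-1 array was below every SD-101+anti-PD-1+a-CD4 array, and these in turn were below every Saline-CTRL array. On 3 of the 5 SD-101+anti-PD-1 arrays Aplnr, too, was below the array medians. Plvap encodes a protein of the diaphragms that span endothelial vesicles and pores. It was at 7.89, 6.89, 6.88 and 6.46 with SD-101+anti-PD-1+a-CD4 and at 5.59, 5.68, 4.27, 5.03 and 4.68 with SD-101+anti-PD-1. With SD-101, Plvap ran from 6.57 through a median of 9.07 to 9.56, and the Saline-CTRL arrays were at 9.30, 7.89, 10.46, 10.32 and 9.52. Plvap showed the same 3 levels as Aplnr, except that the highest SD-101+anti-PD-1+a-CD4 array reached the lowest Saline-CTRL array.

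Sema3g, which encodes a secreted guidance protein made by arterial endothelium, was at 7.13, 5.78, 5.22 and 5.00 with SD-101+anti-PD-1+a-CD4 and at 4.88, 5.19, 3.18, 3.78 and 3.29 with SD-101+anti-PD-1. With SD-101, Sema3g ran from 5.74 through a median of 7.93 to 8.31, and the Saline-CTRL arrays were at 7.84, 6.54, 9.37, 9.19 and 8.26. The SD-101+anti-PD-1 arrays lay below every array of SD-101 and of Saline-CTRL. Vwf encodes von Willebrand factor, a clotting protein stored in endothelial granules and in platelets. It was at 7.43, 6.39, 6.60 and 5.59 with SD-101+anti-PD-1+a-CD4 and at 6.16, 5.69, 4.97, 5.58 and 5.82 with SD-101+anti-PD-1. With SD-101, Vwf ran from 7.04 through a median of 8.26 to 8.72, and the Saline-CTRL arrays were at 8.68, 7.84, 10.15, 9.72 and 9.26. Every SD-101+anti-PD-1+a-CD4 array was below every Saline-CTRL array. In 8 of the 9 genes the group means had 1 order, lowest with SD-101+anti-PD-1, then SD-101+anti-PD-1+a-CD4, then SD-101, and highest with Saline-CTRL.

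**Figure D1:**
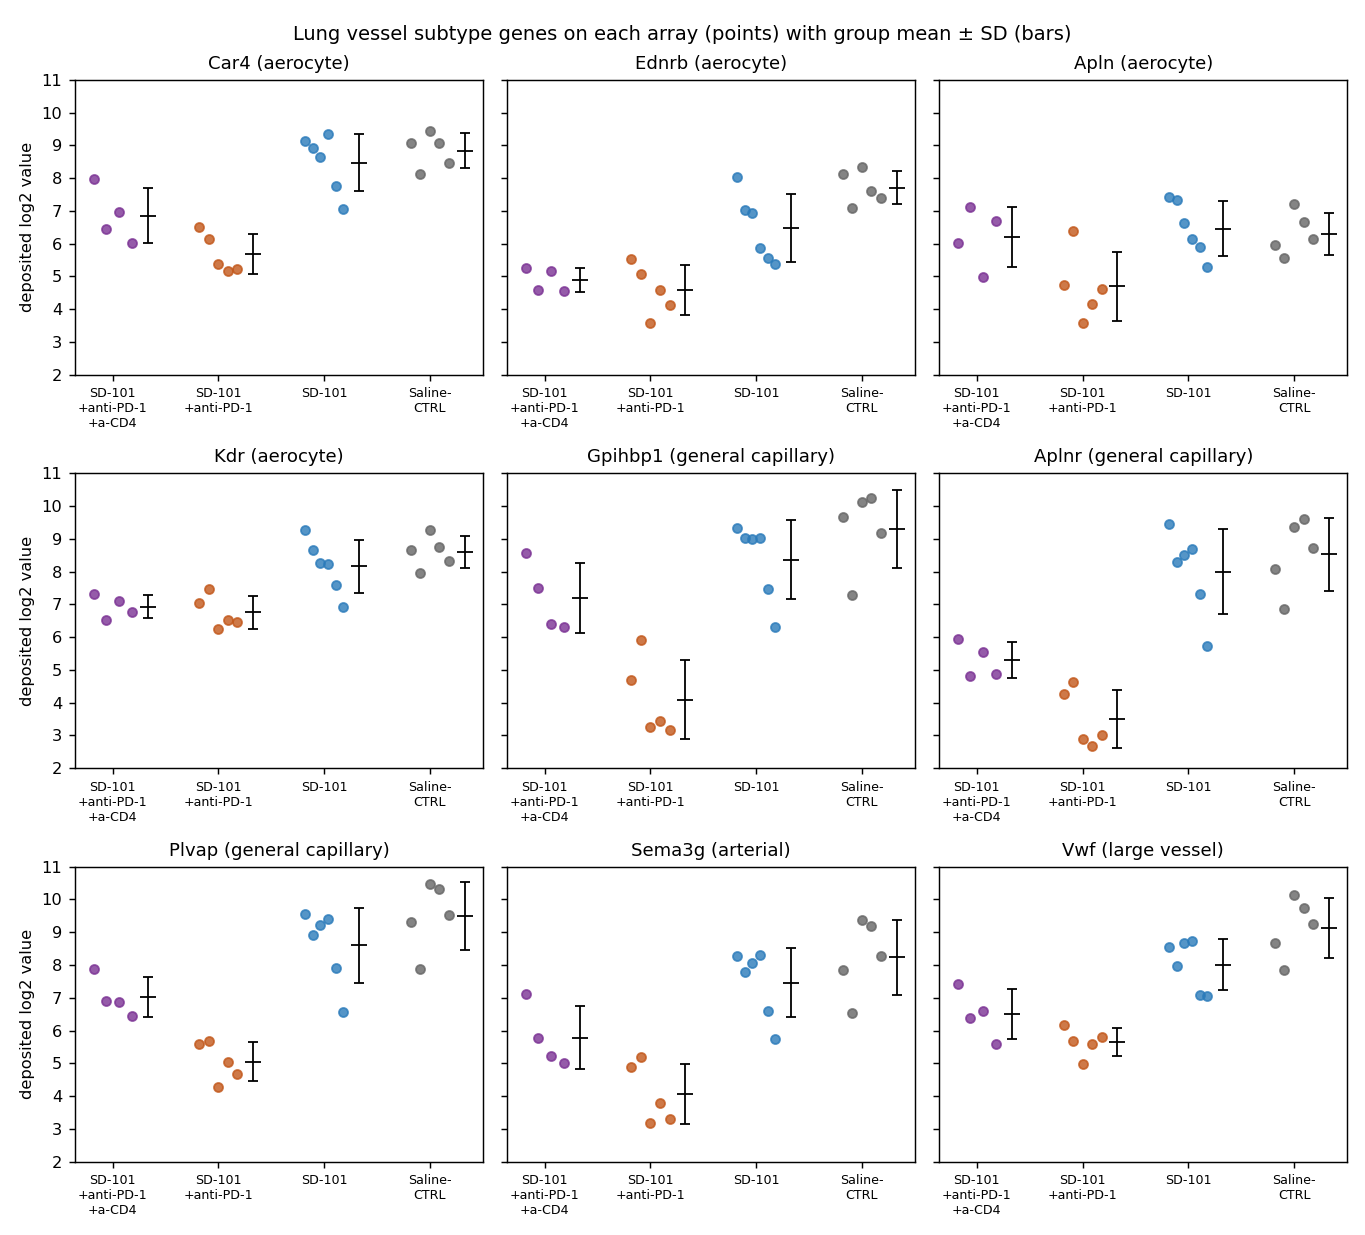
Deposited log2 value of each gene on each of the 20 arrays (points), with the group mean ± SD as bars; columns of points are the 4 groups and panels are the 9 genes. In 8 panels the SD-101+anti-PD-1 mean is lowest and the Saline-CTRL mean highest, while Apln averages 6.20 with SD-101+anti-PD-1+a-CD4, against 6.30 with Saline-CTRL.

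The comparison of SD-101+anti-PD-1 with SD-101 asked what the antibody changed on top of the inhaled ligand. All 9 vessel genes fell with the antibody, where 1.25% of all genes were called lower, a gene being called when its adjusted p was under 0.05. The median log2 difference of the 9 genes was -2.79, against 0.008 over all genes. In 6 of the 9 genes every SD-101+anti-PD-1 array was below every SD-101 array, which held downward for 1.5% of all genes. This comparison shares the SD-101+anti-PD-1 arrays with the one that brought the genes to notice, so it is not an independent test of them.

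The falls ranged widely in size. The general capillary genes had the most negative values: the log2 difference was -4.50 for Aplnr (SE 0.59, adjusted p = 0.00076), -4.26 for Gpihbp1 (SE 0.66, adjusted p = 0.0013) and -3.54 for Plvap (SE 0.52, adjusted p = 0.0012). With the mean of its 2 probe sets Aplnr differed by -3.16 (adjusted p = 0.0017), less than Sema3g did. The arterial gene Sema3g fell by 3.40 (SE 0.58, adjusted p = 0.0026), and Vwf of larger vessels fell by 2.36 (SE 0.42, adjusted p = 0.0031). The aerocyte genes had smaller falls than the general capillary genes, with Car4 lower by 6.93-fold (log2 difference -2.79, SE 0.42, adjusted p = 0.0012). Ednrb differed by -1.89 (SE 0.43, adjusted p = 0.0167), Apln by -1.76 (SE 0.49, adjusted p = 0.0468) and Kdr by -1.40 (SE 0.34, adjusted p = 0.0243). The difference between genes in the size of the fall was not tested, and their order is not independent of the choice of genes. Several SD-101+anti-PD-1 values of Aplnr and Gpihbp1 lay below the array medians, as did Sema3g on replicates 3 and 5 (3.18 and 3.29). The sizes of these falls are therefore uncertain, being read near the low end of the scale. The call of Apln rested on single arrays. It was lost when any of SD-101 replicates 1 to 5 or SD-101+anti-PD-1 replicates 1, 3, 4 and 5 was left out, with adjusted p up to 0.131, and when only the groups compared were fitted (adjusted p = 0.0544). Kdr lost its call without SD-101 replicate 3 or 4 or SD-101+anti-PD-1 replicate 3 or 4 (adjusted p up to 0.0742), and Ednrb without SD-101+anti-PD-1 replicate 3 (adjusted p = 0.0549).

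The comparison of the triple treatment with SD-101 shares no array with the one that brought the genes to notice. All 9 genes had lower means in the triple treatment, with a median log2 difference of -1.57, against 0.027 over all genes. Only Aplnr was called lower, with a difference of -2.70 (SE 0.63, adjusted p = 0.0461), where 0.409% of all genes were. That call was lost when any 1 of the 10 arrays except SD-101 replicate 6 was left out, with adjusted p up to 0.132, the highest when replicate 2 of the triple treatment, the array of lowest T cell score, was left out (log2 difference -2.54). It was also lost with the mean of the Aplnr probe sets (log2 difference -2.19, adjusted p = 0.0521) and with only the groups compared in the fit (adjusted p = 0.0926). The other 8 genes were between -0.25 (Apln, 95% interval -1.35 to 0.85) and -1.68 (Sema3g, 95% interval -2.98 to -0.38), with adjusted p of 0.081 to 0.851. Car4 differed by -1.62 (SE 0.44, adjusted p = 0.081), and Ednrb, whose groups did not overlap, by -1.58 (SE 0.46, adjusted p = 0.0977). Non-overlap in this direction held for 1.72% of all genes. SD-101 replicate 6 had the lowest value of its group for all 9 genes, and without it Aplnr, Car4 and Kdr were called lower, with log2 differences of -1.90 for Car4 (adjusted p = 0.0374) and -1.48 for Kdr (adjusted p = 0.0381).

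The comparison of the triple treatment with Saline-CTRL asked how the triple treatment differed from no drug. Of the 9 genes 7 fell, where 3.03% of all genes were called lower, and the median log2 difference was -2.46, against 0.037 over all genes. Aplnr had the second largest fall of all genes, with a log2 difference of -3.22 (SE 0.65, adjusted p = 0.0056), a 9.34-fold lower mean. These Saline-CTRL arrays are those of the comparison that brought the genes to notice, so the calls are not an independent test of them. Ednrb differed by -2.82 (SE 0.47, adjusted p = 0.0018), Vwf by -2.63 (SE 0.46, adjusted p = 0.0023), Plvap by -2.47 (SE 0.57, adjusted p = 0.0132) and Sema3g by -2.46 (SE 0.64, adjusted p = 0.0261). Car4 differed by -1.98 (SE 0.46, adjusted p = 0.0134) and Kdr by -1.67 (SE 0.38, adjusted p = 0.0112). In 5 of the 9 genes the groups did not overlap, which held downward for 3.32% of all genes. Gpihbp1 differed by -2.11 (SE 0.73) and did not pass the test (adjusted p = 0.0937), and Apln differed by -0.10, with a 95% interval from -1.24 to 1.04.

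Without the pair of arrays that stood apart by their T cell score, 4 genes were called lower. Sema3g then had an adjusted p of 0.0622, Car4 of 0.0644 and Kdr of 0.0558. Sema3g also lost its call without Saline-CTRL replicate 3 or 4 or without replicate 2, 3 or 4 of the triple treatment (adjusted p up to 0.0806) and with only the groups compared in the fit (adjusted p = 0.0774), and Car4 without replicate 4 of the triple treatment (adjusted p = 0.0518). Gpihbp1 was called lower without Saline-CTRL replicate 2 (adjusted p = 0.0309), the array of that group with the lowest values of all 9 genes, and with array weights (adjusted p = 0.0434).

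Adding a-CD4 to SD-101+anti-PD-1 went with higher vessel transcripts, although few differences passed the test. All 9 means were higher with SD-101+anti-PD-1+a-CD4 than with SD-101+anti-PD-1, with a median log2 difference of 1.51, against 0.0022 over all genes. Only Gpihbp1 rose, by 3.10 (SE 0.73, adjusted p = 0.0359), and 0.948% of all genes were called higher. No fold is given, since 3 of the 5 SD-101+anti-PD-1 values of Gpihbp1, like those of Aplnr, lay below the array medians. In Gpihbp1, Aplnr and Plvap, the 3 general capillary genes, every array of the triple treatment was above every SD-101+anti-PD-1 array, which held upward for 3.92% of all genes. Plvap differed by 1.98 (SE 0.57, adjusted p = 0.0771) and Aplnr by 1.81 (SE 0.65, adjusted p = 0.148), or by 0.96 with the mean of its probe sets. The second Aplnr probe set hardly differed, with means of 3.66 in the triple treatment and 3.54 with SD-101+anti-PD-1. Sema3g differed by 1.72 (SE 0.64, adjusted p = 0.162), Apln by 1.51 (SE 0.54, adjusted p = 0.147) and Car4 by 1.17 (SE 0.46, adjusted p = 0.183). Differences were smallest for Vwf (0.86, SE 0.46), Ednrb (0.31, SE 0.47) and Kdr (0.17, SE 0.38). The call of Gpihbp1 was lost without SD-101+anti-PD-1 replicate 1, 3, 4 or 5 or without replicate 1 or 2 of the triple treatment, with adjusted p of 0.067 to 0.12. It was also lost without the pair of arrays of low T cell score (adjusted p = 0.122). This comparison, too, shares the SD-101+anti-PD-1 arrays, where these genes were known to be low, so a difference upward from them is not independent of the choice of genes.

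SD-101 alone was compared with Saline-CTRL, again over arrays of which some took part in the choice. None of the 9 genes passed limma's adjusted threshold, where 0.0351% of all genes were called lower. At an unadjusted p under 0.05 there were 2, Ednrb and Vwf, against 1414 of all genes. Ednrb differed by -1.24 (SE 0.43, adjusted p = 0.399) and Vwf by -1.12 (SE 0.42, adjusted p = 0.448). Differences of the other 7 genes lay between 0.15 (Apln, 95% interval -0.88 to 1.18) and -0.94 (Gpihbp1, 95% interval -2.33 to 0.45). Without SD-101 replicate 6 the difference was -0.53 for Gpihbp1 and -0.50 for Plvap, where all arrays gave -0.94 and -0.90. It was then -0.44 for Sema3g, -0.19 for Kdr, -0.08 for Aplnr and -0.08 for Car4, where all arrays gave -0.78, -0.44, -0.53 and -0.36.

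Against Saline-CTRL, SD-101+anti-PD-1 had lower means of all 9 genes, described here without a test. In 8 of the 9 the groups did not overlap, which held downward for 2.32% of all genes, and nothing is read from this count because the comparison brought the genes to notice. The log2 differences were -5.21 for Gpihbp1, -5.03 for Aplnr, -4.45 for Plvap, -4.18 for Sema3g and -3.49 for Vwf. They were -3.15 for Car4, -3.13 for Ednrb, -1.84 for Kdr and -1.61 for Apln. Apln was the gene whose groups overlapped, through replicate 2 of SD-101+anti-PD-1. A second probe set of Aplnr differed by less, -2.24, and stood at 3.54 with SD-101+anti-PD-1, against 5.79 with Saline-CTRL. Second probe sets of Car4 (-3.42) and Ednrb (-2.54) were closer to the ones used.

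**Figure D2:**
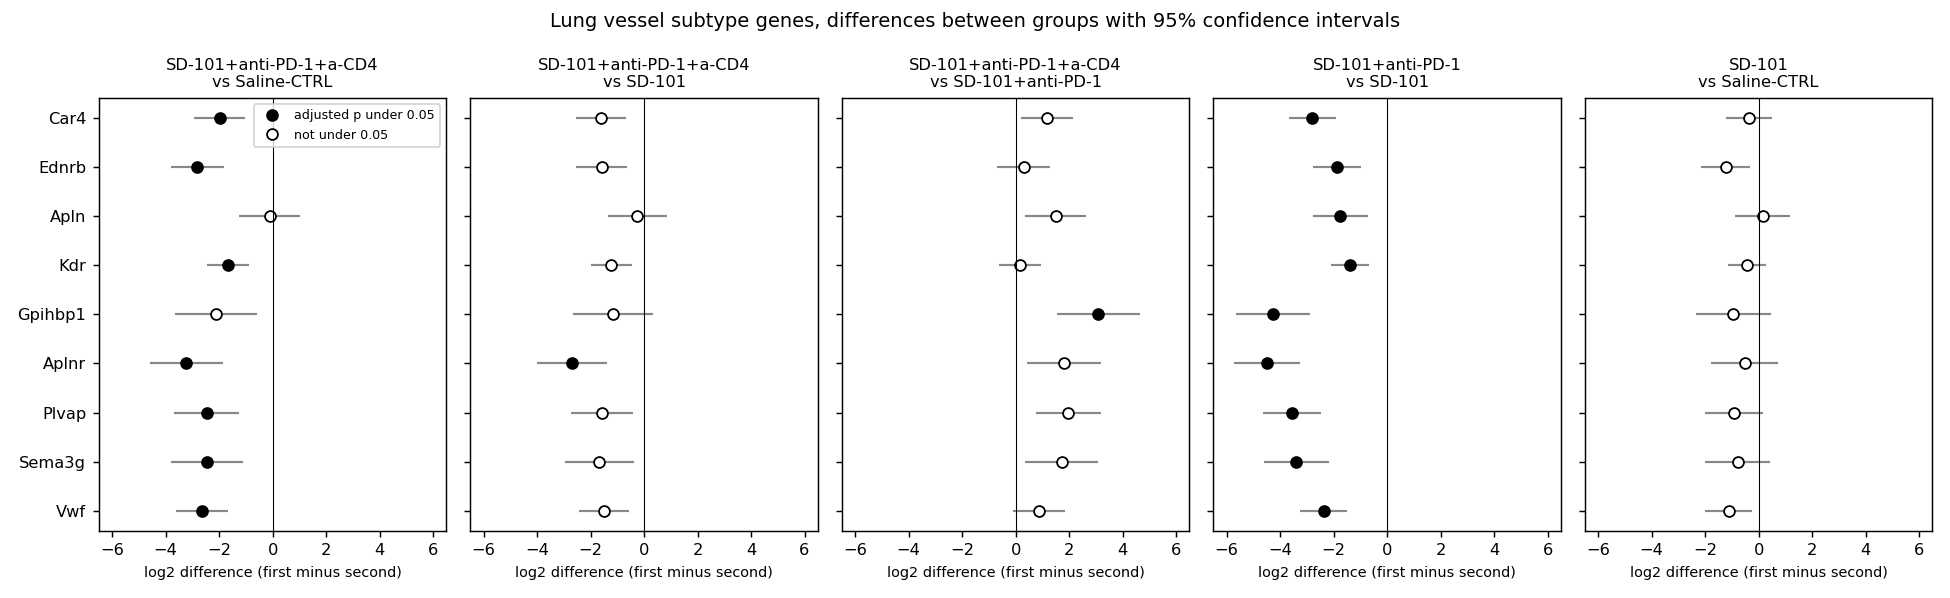
Log2 difference of group means for the 9 genes in the 5 tested comparisons, as points with 95% confidence intervals; the first-named group is on top of the difference, and filled points have an adjusted p under 0.05. Filled points number 7 for the triple treatment against Saline-CTRL, 1 for it against SD-101, 1 for it against SD-101+anti-PD-1, 9 for SD-101+anti-PD-1 against SD-101 and 0 for SD-101 against Saline-CTRL.

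To see how the vessel classes moved within the endothelial transcripts, the mean of 20 pan-endothelial genes on the same array was taken from each gene's log2 value. That mean differed by -2.31 between SD-101+anti-PD-1 and SD-101, and its 20 genes differed by -3.51 to -0.26 each. A positive difference on this relative scale means only that a gene was less reduced than the pan-endothelial mean, a gene of equal level in both groups would be above 0, and differences on it were not tested. On the probe sets used, the general capillary genes had the most negative differences. When chosen, they and Sema3g were known to be among the largest differences between SD-101+anti-PD-1 and Saline-CTRL. Their order on the same SD-101+anti-PD-1 arrays is therefore not independent of the choice of genes. Plvap stood at -0.65 ± 0.30 with SD-101+anti-PD-1 (SD, n = 5), against 0.58 ± 0.33 with SD-101 (SD, n = 6), and the 2 groups did not overlap. Aplnr stood at -2.21 ± 0.68 with SD-101+anti-PD-1 (SD, n = 5), against -0.02 ± 0.52 with SD-101 (SD, n = 6), again without overlap. Its second probe set averaged 3.54 and 5.36 in these groups before the subtraction, a smaller drop than that of the pan-endothelial mean. The relative value of Aplnr thus depends on the probe set. Several of the SD-101+anti-PD-1 values used for Aplnr and Gpihbp1 lay below the array medians, so the sizes of their differences are uncertain. Gpihbp1 differed by -1.95 on this scale and Sema3g by -1.09, both with overlap.

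Aerocyte genes were not uniform on the relative scale. Kdr stood at 1.05 ± 0.29 with SD-101+anti-PD-1 (SD, n = 5), against 0.14 ± 0.34 with SD-101 (SD, n = 6), and every array of the antibody group was above every SD-101 array. Before the subtraction Kdr differed by -1.40. The pan-endothelial mean ran from 5.32 to 6.07 with SD-101+anti-PD-1 and from 6.59 to 8.68 with SD-101. A gene of equal level on every array would therefore separate upward as well. On the relative scale Car4 differed by -0.48, Ednrb by 0.42 and Apln by 0.55, all with overlap, and Vwf by -0.05. Averaged over their members, the aerocyte genes differed by 0.35 between these groups, with overlap. The general capillary genes, on the probe sets used, differed by -1.79, without overlap. They were chosen as large differences of these SD-101+anti-PD-1 arrays from Saline-CTRL. The contrast of the 2 classes is therefore not independent of that choice.

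In the triple treatment the relative values of Gpihbp1 and of the Aplnr probe set used here parted. Gpihbp1 stood at 0.57 ± 0.71 with SD-101+anti-PD-1+a-CD4 (SD, n = 4), against 0.34 ± 0.36 with SD-101 (SD, n = 6), a difference of 0.23 that was 0.05 without replicate 2 of the triple treatment. Aplnr stood at -1.32 ± 0.22 with SD-101+anti-PD-1+a-CD4 (SD, n = 4), against -0.02 ± 0.52 with SD-101 (SD, n = 6), and these groups did not overlap. Before the subtraction its second probe set averaged 3.66 and 5.36 in these groups, and the pan-endothelial mean was 6.63 and 8.02. That probe set was thus reduced only a little more than the pan-endothelial mean. Apln, the ligand, differed from SD-101 by 1.14 in the triple treatment, with overlap. It stood at -0.42 ± 1.19 with SD-101+anti-PD-1+a-CD4 (SD, n = 4), against -2.21 ± 0.27 with Saline-CTRL (SD, n = 5), without overlap. The Apln values of the triple treatment were -1.31, 0.72, -1.59 and 0.48, so replicates 2 and 4 were far above the other two. Against Saline-CTRL, Apln differed by 1.78 and Aplnr by -1.34 in the triple treatment, and without the pair of arrays of low T cell score by 1.36 and -1.32, still without overlap. With SD-101+anti-PD-1 against Saline-CTRL they differed by 1.196 and -2.22, also without overlap. The pan-endothelial mean itself differed from Saline-CTRL by -1.88 in the triple treatment and by -2.81 with SD-101+anti-PD-1. The second Aplnr probe set differed by -2.12 and -2.24 before the subtraction. It was thus reduced a little more than that mean in the triple treatment and less with SD-101+anti-PD-1. Before that subtraction Apln differed by -0.10 and -1.61, so its positive relative differences do not show a rise of Apln. In the triple treatment Car4, Ednrb, Kdr, Plvap, Sema3g and Vwf differed from SD-101 by -0.29 to 0.16 on the relative scale.

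**Figure D3:**
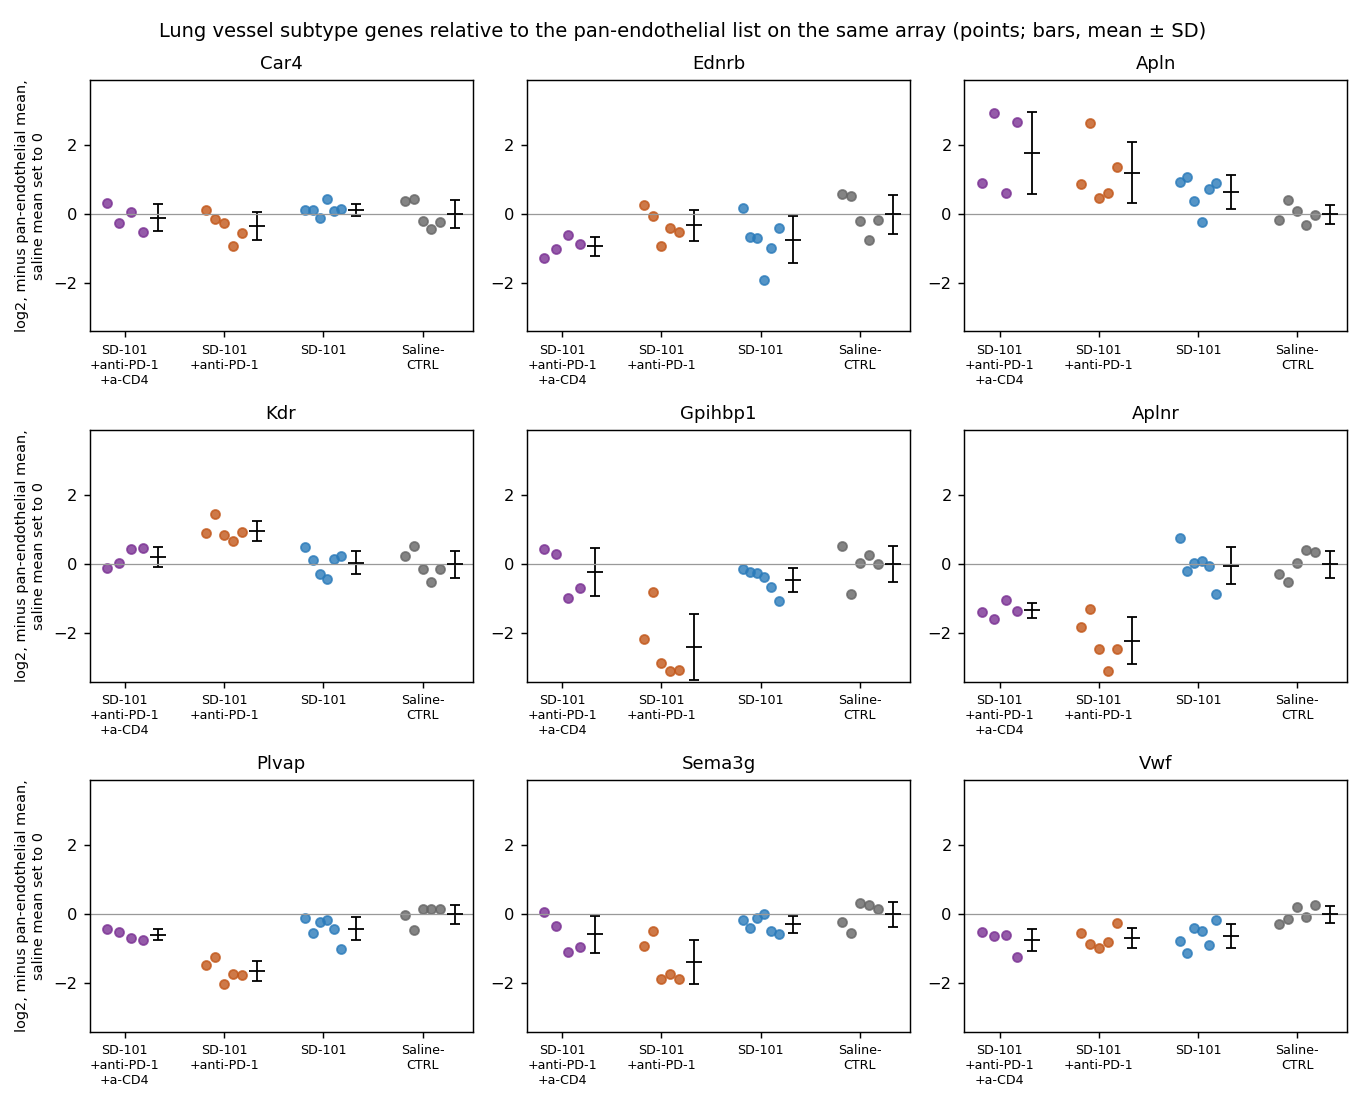
Each gene's log2 value minus the mean of 20 pan-endothelial genes on the same array (points), shifted so that the Saline-CTRL mean is 0, with group mean ± SD as bars. With SD-101+anti-PD-1 the points of Aplnr and Plvap lie below all SD-101 points and those of Kdr above them, and Apln lies above all Saline-CTRL points in both groups given anti-PD-1. Aplnr is shown from the probe set used here, and its second probe set was less reduced in both groups given anti-PD-1. The subtracted mean was itself lower in both groups given anti-PD-1. A gene of equal level on every array would therefore also lie higher there.

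The 9 genes varied together from array to array, also within groups. Over the 20 arrays, Pearson's r between 2 genes was 0.84 to 0.99 in the 28 pairs without Apln and 0.61 to 0.82 in the 8 pairs with it. With group means taken out, r was 0.62 to 0.96 in pairs without Apln and 0.42 to 0.72 in pairs with it. The arrays of a group share their treatment, and all genes of an array share that array, so these values are descriptions. Replicate 1 of the triple treatment was highest in its group for 8 of the 9 genes, and Apln was highest on replicate 2. SD-101 replicate 6 and Saline-CTRL replicate 2 were lowest in their groups for all 9 genes. SD-101+anti-PD-1 replicate 3 was lowest for 6 of the 9.

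**Figure D4:**
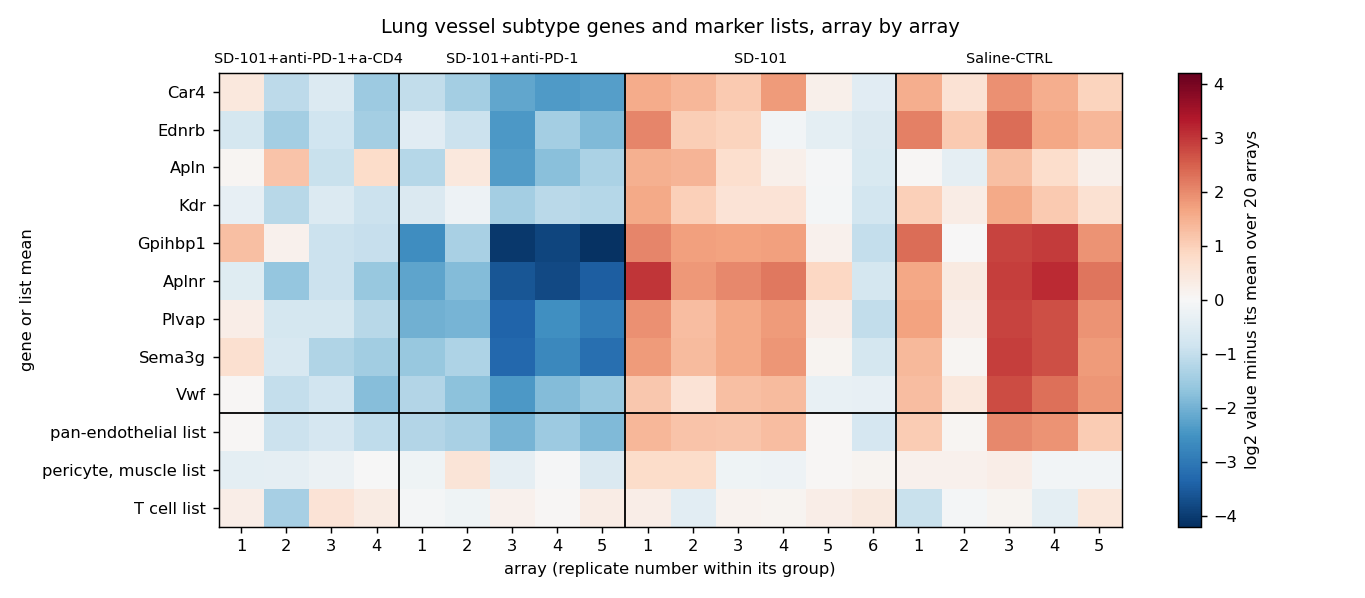
Log2 value of each of the 9 genes, and of 3 marker list means, minus its own mean over the 20 arrays (colour); columns are arrays grouped by treatment. The 9 genes and the pan-endothelial list are low together on SD-101+anti-PD-1 arrays, with Apln on replicate 2 above its own mean, while the T cell list is low on replicate 2 of the triple treatment and replicate 1 of Saline-CTRL.

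The genes with profiles most like those of the vessel classes included Cdh5, the endothelial junction gene. Over the 20 arrays the aerocyte mean was followed most closely by Cdh5 (r = 0.98), Sox18 and Ptprb, and the general capillary mean by Cdh5 (r = 0.99), Clec1a and Tmem100. Sema3g was followed most closely by Foxf1, Egfl7 and Ldb2 (r = 0.99 each), and Vwf by Clec14a, Tek and Calcrl (r = 0.97 each). With group means taken out, the leading genes were Cav1 for aerocytes (r = 0.94), which encodes caveolin 1 of endothelial caveolae. They were Foxf1 for general capillaries (r = 0.97), which encodes a transcription factor of lung vessel development, Egfl7 for Sema3g (r = 0.97) and Thsd1 for Vwf (r = 0.94).

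Further markers of each vessel class were taken from lists, which were chosen with earlier results of these data known. Their counts are therefore not an independent test. With SD-101+anti-PD-1 against SD-101, 1.25% of all genes were called lower. Of 6 other general capillary genes, 5 fell in this comparison, with a median log2 difference of -2.23. Among them were Tek, the receptor of angiopoietins, with a difference of -3.62 (SE 0.63, adjusted p = 0.0029), and Kit, the receptor of stem cell factor, with -1.45 (SE 0.31, adjusted p = 0.0112). Of 8 other aerocyte genes, 2 fell, with a median of -0.10. They were Chst1, a carbohydrate sulfotransferase gene, with -1.21 (SE 0.23, adjusted p = 0.0061), and Kitl, the stem cell factor gene, with -1.496 (SE 0.38, adjusted p = 0.0311). Of 12 other arterial genes, 5 fell, with a median of -0.61. The arterial transcription factor gene Sox17 differed by -3.58 (SE 0.56, adjusted p = 0.0013) and Hey1, a target of Notch signalling, by -2.99 (SE 0.53, adjusted p = 0.0033). Of the pan-endothelial list 17 of 20 fell, with a median of -2.50.

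With the triple treatment against SD-101, 1 gene fell in each of 3 lists, where 0.409% of all genes were called lower. Whether these calls hold without the array of low T cell score was not checked. Chst1 differed by -1.24 among the aerocyte genes (SE 0.25, adjusted p = 0.0275), Kit by -1.39 among the general capillary genes (SE 0.33, adjusted p = 0.0486) and Icam2 by -1.45 in the pan-endothelial list (SE 0.31, adjusted p = 0.0351). The list medians were -0.72, -1.40 and -1.53. The arterial list had a median of -0.58 with none of 12 called by limma (6 at an unadjusted p under 0.05, against 2846 of all 17097 genes). Against SD-101+anti-PD-1, the triple treatment had no called gene in the aerocyte, general capillary and pan-endothelial lists by limma, with medians of -0.35, 1.04 and 1.15. At an unadjusted p under 0.05 those lists held 1, 3 and 11 genes, against 3060 of all 17097 genes. Cdh13, in the arterial list, fell by 0.87 (SE 0.22, adjusted p = 0.0468), where 1.18% of all genes were called lower.

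Against Saline-CTRL the triple treatment had 4 of 8 aerocyte, 6 of 6 general capillary, 6 of 12 arterial and 17 of 20 pan-endothelial genes called lower. Of all genes 3.03% were called lower. The list medians were -1.13, -1.84, -1.25 and -1.99. Examples were Nckap5 among the aerocyte genes, with a difference of -1.79 (SE 0.42, adjusted p = 0.0139), and Dll4, a Notch ligand of arteries, with -2.50 (SE 0.60, adjusted p = 0.0158). SD-101 against Saline-CTRL had none called in these 4 lists by limma, with medians of -0.52, -0.62, -0.38 and -0.55. At an unadjusted p under 0.05 there were 3, 0, 2 and 0 genes, against 1414 of all 17097 genes.

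Partners of the 9 genes were taken from a list of ligands, receptors and enzymes that act with them. Of 16 measured, 2 fell with SD-101+anti-PD-1 against SD-101, where 1.25% of all genes were called lower, with a list median of -0.11. Flt1, another receptor of vascular endothelial growth factor A, was at 3.74 ± 0.14 with SD-101+anti-PD-1 (SD, n = 5), against 6.71 ± 0.99 with SD-101 (SD, n = 6), a log2 difference of -2.98 (SE 0.46, adjusted p = 0.0013). Edn1, an endothelin that binds the Ednrb product, fell by 2.32 (SE 0.57, adjusted p = 0.0255). Against Saline-CTRL the triple treatment had 5 of the 16 called lower, where 3.03% of all genes were, with a median of -0.28. They included the coreceptor gene Nrp1, with -1.31 (SE 0.22, adjusted p = 0.0019), the growth factor gene Vegfa, with -0.96 (SE 0.24, adjusted p = 0.0192), and Ece1, which encodes an enzyme that activates endothelins, with -0.90 (SE 0.25, adjusted p = 0.032). None of the 16 was called in the triple treatment against SD-101 or against SD-101+anti-PD-1, or in SD-101 against Saline-CTRL, by limma (4, 4 and 3 at an unadjusted p under 0.05). Of all 17097 genes, 2846, 3060 and 1414 reached that unadjusted p in these comparisons.

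Markers of veins, lymphatic vessels, vessel wall cells and platelets were measured as well. With SD-101+anti-PD-1 against SD-101, where 1.25% of all genes were called lower, 1 of 6 measured venous genes fell (Slc6a2, log2 difference -2.11, SE 0.57, adjusted p = 0.039), 1 of 6 lymphatic genes (Lyve1, -2.50, SE 0.49, adjusted p = 0.0072) and 1 of 11 pericyte and smooth muscle genes (Rgs5, -1.62, SE 0.39, adjusted p = 0.0246). The list medians were -0.44, -0.0053 and -0.33. With the triple treatment against Saline-CTRL, Lyve1 was the only gene of these 3 lists called lower (log2 difference -2.03, SE 0.55, adjusted p = 0.0295). None of them was called with the triple treatment against SD-101 by limma, with 1, 1 and 2 genes at an unadjusted p under 0.05, against 2846 of all 17097 genes. Prox1, which defines lymphatic endothelium, averaged 2.57 to 2.70 in the 4 groups, under the median of every array. Of 8 platelet genes none was called by limma in any comparison (0 to 3 at an unadjusted p under 0.05, against 1414 to 3560 of all 17097 genes). Their mean ran from 3.62 to 3.81 over the arrays of the triple treatment, 3.68 to 3.89 with SD-101+anti-PD-1, 3.85 to 4.46 with SD-101 and 3.70 to 4.43 with Saline-CTRL. The platelet list was thus lower on every array of the triple treatment than on any SD-101 array, and its median difference was -0.31 with SD-101+anti-PD-1 against SD-101. Platelets also make Vwf, and their part in its values was not tested.

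Lists of other cell types were measured beside the vessel genes. The mean of 13 lung epithelial genes was 9.55 ± 0.32 in the triple treatment (SD, n = 4), 10.23 ± 0.22 for SD-101+anti-PD-1 (SD, n = 5), 9.13 ± 0.34 for SD-101 (SD, n = 6) and 9.12 ± 0.88 for Saline-CTRL (SD, n = 5). It was thus highest where the vessel genes were lowest, with 3 of the 13 genes called higher with SD-101+anti-PD-1 against SD-101, where 3.52% of all genes were. The mean of 9 fibroblast genes was 7.42 ± 0.38, 8.16 ± 0.21, 7.33 ± 0.50 and 7.10 ± 0.82 in the same order of groups. The mean of 12 macrophage genes was 4.48 ± 0.41, 4.41 ± 0.21, 5.47 ± 1.11 and 4.50 ± 0.39, with SD-101 replicate 4 at 7.53. With SD-101+anti-PD-1 against SD-101, 1 of the 9 fibroblast genes was called higher, Col1a2 (log2 difference 0.46, SE 0.13, adjusted p = 0.0454), where 3.52% of all genes were. Of the 12 macrophage genes 1 was called lower, C1qa (log2 difference -1.37, SE 0.37, adjusted p = 0.0408), where 1.25% of all genes were. With the triple treatment against SD-101+anti-PD-1, the ciliated cell gene Foxj1 fell by 1.76 (SE 0.27, adjusted p = 0.0049), and the fibroblast gene Lum was lower, at -1.40 (SE 0.34, adjusted p = 0.0425). The mean of 9 measured genes of the early stress response to tissue dissociation was 9.57 ± 0.31, 9.41 ± 0.22, 10.36 ± 0.42 and 10.64 ± 0.54, low in the same 2 groups as the vessel genes. Of these 9 genes 6 were called lower with SD-101+anti-PD-1 against SD-101, 2 with the triple treatment against SD-101 and 6 with it against Saline-CTRL. The shares of all genes called lower in these comparisons were 1.25%, 0.409% and 3.03%. The mean of 10 T cell genes was 9.87 ± 0.90, 9.98 ± 0.19, 10.05 ± 0.31 and 9.75 ± 0.53, and none of the 10 was called by limma or reached an unadjusted p under 0.05 in any comparison. The part of these cell types and of tissue dissociation in the vessel differences was not tested.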

How the data were processed

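Biotin-labelled RNA of 20 samples was hybridised to Affymetrix arrays. The deposited table gives 1 value per probe set and sample as the authors computed it, taken as log2 from its range and because RMA gives log2 values. The tools RMA, affy and limma and the build mm8 are named in the submitters' processing notes, with no version or role, and no coordinate of that build is used. The deposited log2 values ran from 1.78 to 13.44 and were used as they stand. Arrays have no read depth, and their number limits the precision. Of 45141 probe sets, 104 were controls, 28898 had 1 gene symbol in the platform annotation, 551 had several and 15692 had none listed. Entrez identifiers matched 28689 probe sets to RefSeq and changed 0 symbols. A gene was represented by whichever of its probe sets was brightest on average, which gave 17097 genes with no filter on level. The 9 vessel genes have 12 such probe sets, and all 9 genes had a mean of at least 5.

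One limma model (version 3.58.1, R 4.3.3) estimated the 4 group means without covariates and gave 6 comparisons. The test was 2-sided and moderated, adjusted by Benjamini-Hochberg over all genes, and "fell", "rose" and "called" refer to an adjusted p under 0.05. The fit was tested on simulated data. For the 9 genes SD-101+anti-PD-1 against Saline-CTRL was left untested. The members, and 14 lists of 160 other genes (146 measured), were chosen with earlier results of these data known. Named genes were the 9 members, up to 4 genes of smallest p per list, and per vessel class the 3 other genes of highest correlation, passing over predicted genes. Further values given singly (Cd8a, Cdh5, Prox1 and group means of Flt1) were chosen as checks. The labels do not state that replicate numbers pair the samples, and the main fit treated them as unpaired. Correlations of same-numbered arrays were -0.39 to 0.51. They were not compared with those of differently numbered arrays, so they do not settle whether samples were paired. Alternatives varied how probe sets were chosen, the scaling, the level filter, the variance model, array weights, the groups fitted, a replicate block and each array in turn. A further alternative without the pair of arrays that stood apart by T cell score was chosen after seeing the data. It was read for the 9 vessel genes and the count of all calls, and for the values relative to the pan-endothelial mean.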

Additional observations from a re-analysis of the deposited data

How the results depend on the processing

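The 9 genes gave 1071 values under other settings, of which 1008 kept their direction and their side of the threshold, 44 lost a call, 11 gained one, 7 changed sign and 1, Aplnr in SD-101+anti-PD-1 against Saline-CTRL, moved to -3.64 with the mean of its probe sets. With SD-101+anti-PD-1 against SD-101, 6 to 9 genes were called lower under all settings tried. For the triple treatment against SD-101+anti-PD-1, where 1 gene was called higher, the count was 3 with array weights, 2 with only the groups compared, 0 without the 2 arrays of lowest T cell score and 0 to 1 when leaving out single arrays. For the triple treatment against Saline-CTRL the 7 genes called lower became 4 without the 2 arrays of lowest T cell score and 5 to 8 when leaving out single arrays. For the triple treatment against SD-101 the 1 gene called lower became 0 with the mean of probe sets, 0 with only the groups compared, 0 without the 2 arrays and 0 to 3 when leaving out single arrays. With the replicate number as a block that count was 5, and the block changed no other count of called members. Whether the numbers pair the samples is not known. Apln was the only gene whose values changed sign, none of them called. In SD-101 against Saline-CTRL its 0.15 became -0.14 with array weights, -0.040 without Saline-CTRL replicate 2 and -0.030 without SD-101 replicate 2, and leaving out single arrays gave -0.045 (SD-101 replicate 1) to 0.38. In the triple treatment against Saline-CTRL its -0.10 became 0.12 without Saline-CTRL replicate 3 and ran from -0.41 to 0.30 when leaving out single arrays, 0.30 without replicate 3 of the triple treatment. In the triple treatment against SD-101 its -0.25 ran from -0.55 to 0.15, the value without that same array. The cause of these changes was not tested. Centring arrays on their medians moved the median of all genes to -0.11 in both SD-101+anti-PD-1 comparisons with SD-101 and with Saline-CTRL, and no called member changed direction under it. The share of all calls that were higher became 60.2% instead of 73.8% for SD-101+anti-PD-1 against SD-101, 39.3% instead of 61.7% for it against Saline-CTRL (51.2% with quantile normalization), 40.1% instead of 57.5% for the triple treatment against Saline-CTRL and 44.1% instead of 58.3% for it against SD-101 (45.8% with quantile normalization). Over all genes, the counts called ranged from 317 to 2760 for SD-101+anti-PD-1 against SD-101 (816 as reported), 553 to 1953 for it against Saline-CTRL (962), 62 to 1246 for the triple treatment against SD-101+anti-PD-1 (364), 476 to 1779 for the triple treatment against Saline-CTRL (1218), 35 to 603 for it against SD-101 (168) and 10 to 119 for SD-101 against Saline-CTRL (57).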
